A study of Mus musculus with 4 samples.

Results

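Transcripts of 10 neutrophil granule and cytosol proteins were followed in sorted mouse natural killer (NK) cells with and without Tcf7. The genes are Mpo, Elane, Prtn3 and Ctsg for primary granules, Lcn2, Ltf, Camp and Ngp for secondary granules, and S100a8 and S100a9 for the cytosol. They were chosen by name, and all 10 were found by Entrez gene number among the 26611 genes of the table.

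Neutrophils build their granules in a fixed order while they mature in the bone marrow. Promyelocytes make the enzymes of the primary (azurophil) granules, myelocytes then make the iron-binding and antimicrobial proteins of the secondary (specific) granules, and S100a8 and S100a9 fill the cytosol of later stages and of blood neutrophils. The transcripts of primary granule proteins are largely gone from mature neutrophils, so they are used as markers of precursors. NK cells kill with another set of granule proteins, the granzymes and perforin.

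The libraries came from 2 Tcf7 knock-out (KO) mice and 2 wild-type (WT) mice, each an individual animal on the C57BL/6 strain background. Tcf7 encodes Tcf-1, a transcription factor of T and NK cell development, and the series asks what it does in NK cells. Spleen cells without TCRbeta that bore NK1.1, NKp46, CD11b and KLRG1 were sorted, and CD11b is also carried by neutrophils. The labels give neither the Tcf7 allele nor the age or sex of the mice.

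The KO libraries held 28254693 and 37384979 counts, and the WT libraries held 31860505 and 40175537. Levels are TMM-scaled CPM, the counts of a gene scaled to a common library size. A count of 0 allows a level as high as that of 3 counts, 0.0763 to 0.102 CPM by library, with counting error alone considered. Tcf7 read 11.2 and 25.0 CPM in KO mice, against 89.4 and 79.0 CPM in WT mice. The 12 NK cell markers summed to 42694 and 36536 CPM in KO and 40434 and 35194 CPM in WT, with none at 0. Whole profiles were closest between libraries of the same number: a chi-square test of the counts gave 68.3 per degree of freedom between KO library 1 and WT library 1 and 36.9 between KO library 2 and WT library 2, against 147 to 285 for the other pairs. Beyond replicate, the labels do not say what a number stands for.

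By measured level all 10 genes had the same order: KO library 1, KO library 2, WT library 1 and WT library 2, from high to low. The order of the WT libraries was within counting error for Mpo, Elane, Prtn3 and Ctsg, whose exact 95% intervals overlapped there, as did those of Ctsg in KO library 2 and WT library 1. Summed over the 10 genes, the level was 444 and 96.5 CPM in the KO libraries and 30.2 and 1.40 CPM in the WT libraries. Both KO libraries lay above both WT libraries for every one of the 10, where 9.64% of the 12723 tested genes did so. The full order was held by 3.87% of tested genes. Of the 10, 7 passed the filter on low counts only through their KO counts, and Ctsg did not pass it. These comparisons are therefore descriptions and lend no support. The spread within each genotype was wide, and edgeR's quasi-likelihood test over all genes called none of the 9 that could be tested at an adjusted p under 0.05 (background 0%). In these bulk libraries, a change in the number of cells that carry a transcript and a change in the amount per cell cannot be told apart.

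**Figure D1:**
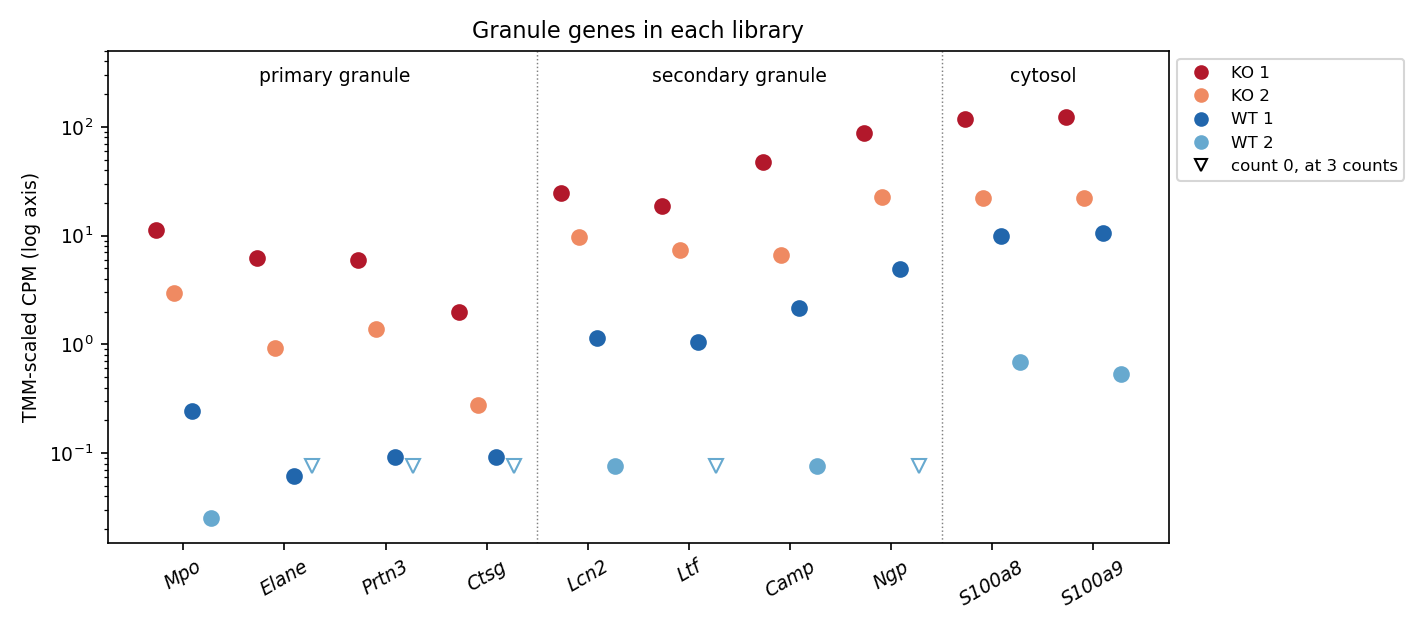
TMM-scaled CPM (log axis) of the 10 granule genes in KO libraries 1 and 2 and WT libraries 1 and 2, where an open triangle stands for a count of 0 and is drawn at the level of 3 counts. KO library 1 is the highest for each gene and WT library 2 has the lowest count, and the summed levels are 444 and 96.5 CPM in KO and 30.2 and 1.40 CPM in WT.

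Some of the genes lie near each other on the chromosomes (GRCm38, the mm10 build). Prtn3 (chromosome 10, 79879667 to 79883174) ends 3.14 kb before Elane (79886312 to 79888216). S100a8 (chromosome 3, 90669071 to 90670034) and S100a9 (90692630 to 90695721) are 22.6 kb apart. Camp (109847377 to 109849456), Ngp (110419808 to 110423012) and Ltf (111019292 to 111042766) follow each other on chromosome 9 with gaps of 570 and 596 kb. Mpo is on chromosome 11 (87793784 to 87804412), Ctsg on chromosome 14 (56099885 to 56102574) and Lcn2 on chromosome 2 (32384637 to 32387739).

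The 250 bases before the start sites of the 10 genes were searched for short words of blood cell factors, on both strands. All 10 had an entry in the RefSeq promoter table (GRCm38.p6). The PU.1 word AGGAAG was in 8 of the 10 stretches, all 4 of the primary granule genes among them, and in 29.2% of 27025 promoters. The C/EBP word TTGCNNAA was in 4 of 10 (Lcn2, Ltf, Ngp and S100a9) and in 9.55% of promoters. The RUNX word TGTGGT was in 2 of 10 (Ctsg and S100a9) and in 14.2%, and the TCF/LEF word CTTTGA was in 2 of 10 (Mpo and Ctsg) and in 14%. No match of 1 word overlapped a match of another. A match is a run of letters and not a shown binding site. These shares describe genes chosen by name, and a link to the order of the libraries was not tested. The 120 bases before the start of the neighbours Elane and Prtn3 are shown because both hold the PU.1 word at a like distance, and those of Ltf and Ngp because they hold the C/EBP word on its reverse strand; capitals mark the words, and each stretch runs 5′ to 3′ on the plus strand.
Elane (chr10:79886192-79886311): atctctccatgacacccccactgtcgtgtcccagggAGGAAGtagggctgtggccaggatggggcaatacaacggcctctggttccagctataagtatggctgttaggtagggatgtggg
Prtn3 (chr10:79879547-79879666): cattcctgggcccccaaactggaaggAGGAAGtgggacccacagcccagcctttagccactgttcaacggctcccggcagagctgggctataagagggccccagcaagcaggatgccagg
Ltf (chr9:111019172-111019291): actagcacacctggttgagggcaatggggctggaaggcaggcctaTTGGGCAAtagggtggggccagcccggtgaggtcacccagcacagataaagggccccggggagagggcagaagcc
Ngp (chr9:110419688-110419807): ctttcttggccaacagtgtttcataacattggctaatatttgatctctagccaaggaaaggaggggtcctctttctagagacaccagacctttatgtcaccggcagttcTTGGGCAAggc
The word begins 84 bases before the start in Elane, 94 in Prtn3, 75 in Ltf and 11 in Ngp, which has a second match that begins 138 bases before it.

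The primary granule genes were almost absent from WT cells and present in both KO mice. Mpo, the peroxidase that makes hypochlorous acid, was counted 331 and 107 times in the KO libraries and 8 times and 1 time in the WT libraries. Its level was 11.3 and 2.97 CPM in KO and 0.246 and 0.0254 CPM in WT, a mean of 7.12 ± 5.88 CPM against 0.136 ± 0.156 CPM (SD, n = 2 each). The groups did not overlap, and the lower KO library was 12.1-fold above the higher WT library, while the KO libraries differed 3.8-fold. On the log2 scale KO minus WT was 5.73 (SE 1.22), with an unadjusted edgeR p of 0.00709 and an adjusted p of 1.00, and DESeq2's Wald test gave an adjusted p of 1.08e-05. DESeq2 called 0.377% of tested genes higher. Mpo passed the filter on low counts only through its KO counts, so these p-values are descriptions and lend no support.

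Elane, which encodes neutrophil elastase, had 183 and 33 counts in the KO libraries and 2 and 0 in the WT libraries. Over the pooled counts, the KO level was 119-fold the WT level, with a 95% counting interval of 32.4 to 985 that does not cover the spread between mice. Prtn3, which encodes proteinase 3, had 176 and 50 counts in KO and 3 and 0 in WT, a pooled ratio of 82.7 (27.9 to 404). For both genes KO library 2 was 14.9-fold (Elane) and 15-fold (Prtn3) above WT library 1, and the groups did not overlap. Elane took 51.0% of the counts of this neighbouring pair in KO library 1 and 39.8% in KO library 2, with exact binomial 95% intervals (45.7 to 56.3% and 29.2 to 51.1%) that overlap. In edgeR the log2 fold changes were 6.80 (SE 1.61) for Elane and 6.31 (SE 1.43) for Prtn3, each with an adjusted p of 1.00, and the DESeq2 adjusted p-values were 6.65e-04 and 2.02e-04. Both genes passed the filter on low counts only through their KO counts, so these p-values lend no support.

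Ctsg encodes cathepsin G, a protease that shares the primary granule with elastase. It was counted 58 and 10 times in the KO libraries and 3 and 0 times in the WT libraries, a pooled ratio of 24.9 (8.16 to 124). It was too low for the filter and was not tested. Both KO libraries lay above both WT libraries in measured level.

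The secondary granule genes were higher in level and ran from abundant in KO library 1 to nearly nothing in WT library 2. Ngp, which encodes a cathelicidin-related neutrophil granule protein, had 2580 and 816 counts in the KO libraries and 160 and 0 in the WT libraries, or 87.9 and 22.6 CPM against 4.92 and 0 CPM. The gap of 4.60-fold between KO library 2 and WT library 1 was close to the 3.89-fold gap between the KO mice. On the log2 scale KO minus WT was 4.50 (SE 2.02), and the unadjusted edgeR p was 0.0828.

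Camp encodes the cathelicidin antimicrobial peptide. Its level was 47.5 and 6.60 CPM in KO and 2.15 and 0.0763 CPM in WT, and its KO libraries differed more from each other (7.20-fold) than KO library 2 did from WT library 1 (3.07-fold). Ltf, which encodes the iron-binding lactoferrin, had 547 and 265 counts in KO and 34 and 0 in WT, or 18.6 and 7.35 CPM against 1.05 and 0 CPM. Their groups did not overlap, and the log2 fold changes were 4.62 (SE 1.70) for Camp and 4.67 (SE 1.57) for Ltf. Neither passed (edgeR unadjusted p = 0.0469 for Camp and 0.0361 for Ltf, DESeq2 adjusted p = 0.952 and 1.00).

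Lcn2, which encodes lipocalin 2, a protein that withholds iron by binding bacterial siderophores, was the member with the smallest spread between KO mice beside Ltf. It read 24.7 and 9.70 CPM in KO mice and 1.14 and 0.0763 CPM in WT mice, a mean of 17.2 ± 10.6 CPM against 0.607 ± 0.751 CPM (SD, n = 2 each). The lower KO library was 8.53-fold above the higher WT library. KO minus WT was 4.85 (SE 1.24) on the log2 scale, with an unadjusted edgeR p of 0.0142 and a DESeq2 adjusted p of 4.48e-04. Lcn2 needed its KO counts to pass the filter on low counts, so these p-values lend no support.

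S100a8 and S100a9 form calprotectin, a calcium- and zinc-binding dimer that neutrophils hold in large amounts. S100a8 read 118 and 22.3 CPM in KO mice and 9.93 and 0.687 CPM in WT mice, and S100a9 read 122 and 22.3 CPM in KO and 10.5 and 0.534 CPM in WT. The groups did not overlap, but KO library 2 was 2.25-fold and 2.13-fold above WT library 1, less than the gap between the KO mice (5.28-fold and 5.45-fold). They had the smallest log2 fold changes of the 9 tested genes, 3.73 (SE 1.52) and 3.71 (SE 1.61), with unadjusted edgeR p-values of 0.0634 and 0.0757. S100a9 took 50.8% and 49.97% of the counts of the pair in KO and 51.4% and 43.8% in WT, and the exact binomial intervals of the 4 libraries overlap (from 29.5 to 58.8% in WT library 2, with 48 counts).

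Compared per kb of gene length, the cytosolic genes had the highest levels in each library. S100a8 stood at 301 and 57.0 CPM per kb in KO and 25.3 and 1.75 CPM per kb in WT. In the KO libraries Ngp (75.7 and 19.5 CPM per kb), Camp (79.4 and 11) and Lcn2 (28.9 and 11.4) came next, and Ltf (6.80 and 2.68), Mpo (4.43 and 1.17), Prtn3 (6.17 and 1.43) and Elane (6.78 and 0.995) were lower. Ctsg was the lowest in both KO libraries, at 1.97 and 0.277 CPM per kb. Neighbours in this order, such as Ngp and Camp, or Elane and Prtn3, changed places between the KO libraries.

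In the fit over all genes the median log2 fold change of the 9 tested members was 4.67, beside -0.01 over all 12723 tested genes. Only S100a8 and S100a9 would have passed the filter on low counts by their WT libraries alone. The other 7 needed their KO counts to pass, which favours genes higher in KO. The median and the counts of calls below are therefore descriptions and lend no support. An unadjusted edgeR p under 0.05 was reached by 6 members, all higher in KO (1.7% of tested genes were), and DESeq2 called 4, Mpo, Elane, Prtn3 and Lcn2, as higher, all 4 among those 7 (0.377% of tested genes were called higher and 0.181% lower). Without 1 library at a time, the number called by DESeq2 was 1 without KO library 1 (Lcn2), 3 without KO library 2 (Mpo, Elane and Prtn3), 9 without WT library 1 and 7 without WT library 2. The share of all tested genes called higher in those fits was 0.227%, 0.439%, 0.33% and 0.189%, in the same sequence. edgeR called 3 without KO library 2 (Mpo, Elane and Prtn3, adjusted p = 0.0378, 0.00336 and 0.0176; 0.34% of tested genes were called higher) and 0 without any other library.

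Within libraries of the same number, KO lay above WT for each gene in both pairs. In the pair numbered 1, the fold was 45.9 for Mpo, 21.7 for Lcn2, 17.9 for Ngp, 11.9 for S100a8 and 11.6 for S100a9. In the pair numbered 2, it was 127 for Lcn2, 32.5 for S100a8 and 41.8 for S100a9, and for Mpo it was 117 with a counting interval of 20.5 to 4647, since WT library 2 held 1 Mpo count. Against 3 counts in WT library 2, Ngp was 296-fold higher in KO library 2, Ltf 96.2-fold, Prtn3 18.2-fold, Elane 12-fold and Ctsg 3.63-fold. With the counting error of both libraries, the exact 95% intervals of these ratios began at 240, 77.7, 14.2, 9.21 and 2.44. With 0.1 CPM added, the median log2 ratio of the 10 genes was 4.23 in the first pair and 4.99 in the second, beside -0.03 and -0.00 over all tested genes. With 1 CPM added the medians were 3.36 and 2.94, so which pair was larger depended on the amount added. Libraries of 1 genotype also differed: library 1 exceeded library 2 by log2 ratios of 1.33 to 2.83 in KO and 0.69 to 5.65 in WT over the 10 genes.

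**Figure D2:**
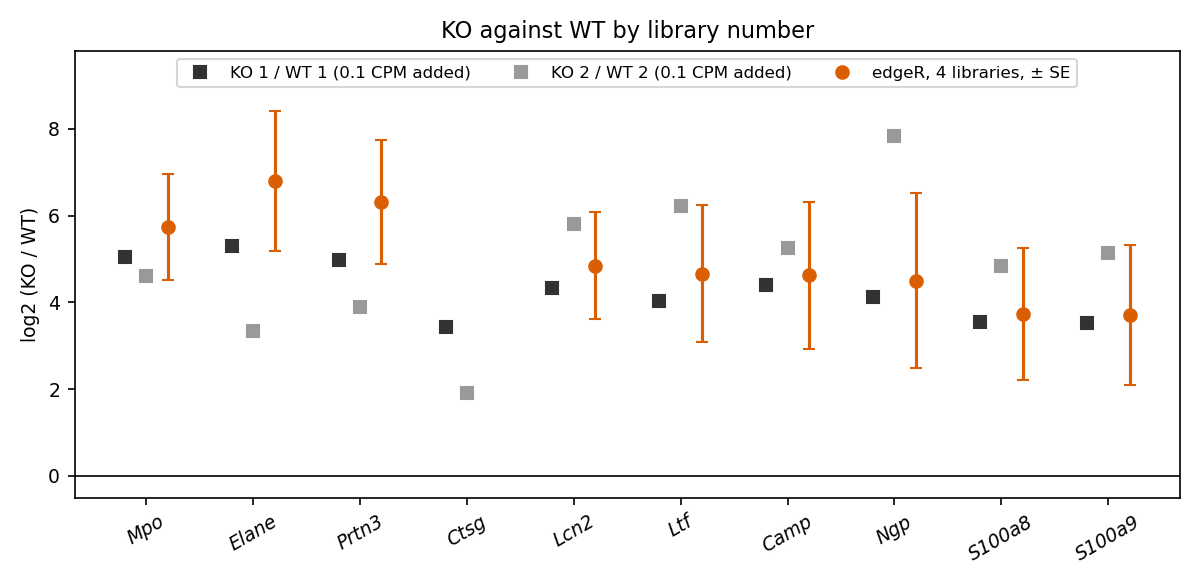
Log2 ratio of KO to WT for each granule gene within libraries numbered 1 (dark squares) and 2 (grey squares), with 0.1 CPM added, and the edgeR log2 fold change over the 4 libraries with its SE (orange circles; Ctsg was not tested). Every ratio is above 0, with medians of 4.23 for number 1 and 4.99 for number 2, an order that reverses with 1 CPM added.

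The make-up of the granule transcripts was compared as shares of their summed counts, a measure that does not depend on how libraries are scaled. The primary granule genes took 5.74% and 5.75% of the counts of the 10 genes in the KO libraries (748 of 13029 and 200 of 3480) and 1.63% and 1.82% in the WT libraries (16 of 981 and 1 of 55). The exact binomial 95% intervals were 5.35 to 6.15% and 5.0 to 6.57% in KO and 0.935 to 2.64% and 0.0460 to 9.72% in WT. The share in WT library 1 was thus below both KO libraries beyond counting error, while the 55 counts of WT library 2 could not place its share. The difference of 4.02 percentage points (KO minus WT) had an exact permutation p of 0.333 (two-sided), the smallest that 2 mice against 2 allow. The cytosolic genes took 54.0% and 46.3% in KO and 67.7% and 87.3% in WT, and the secondary granule genes 40.3% and 48.0% in KO and 30.7% and 10.9% in WT (exact permutation p = 0.333 for each). Among primary and secondary genes alone, the primary share was 12.5% and 10.7% in KO and 5.05% and 14.3% in WT, where the last value is 1 of 7 counts, and the groups overlapped.

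**Figure D3:**
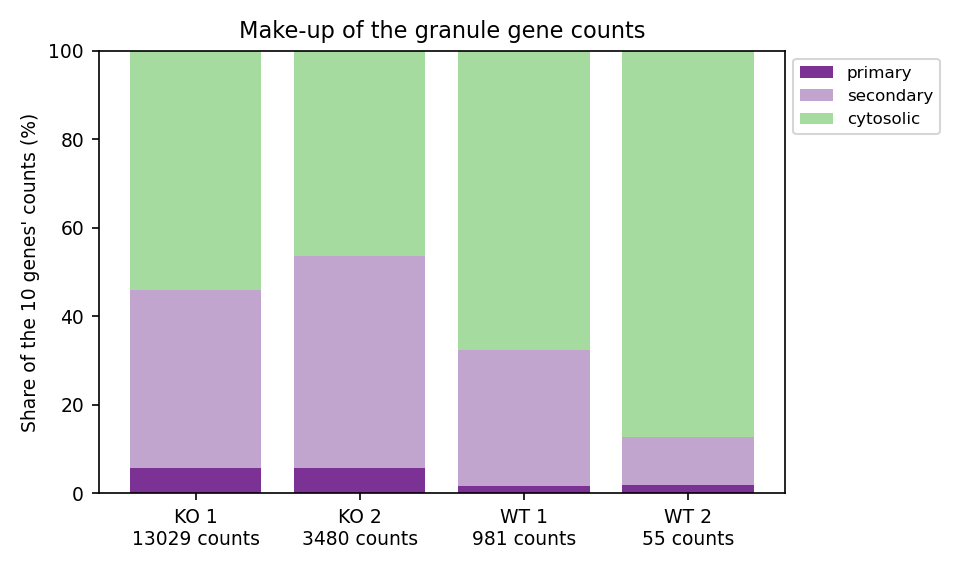
Share (%) of the counts of the 10 granule genes taken by primary granule, secondary granule and cytosolic genes in KO libraries 1 and 2 and WT libraries 1 and 2, with the total of the 10 under each bar. Primary granule genes take 5.74% and 5.75% in KO and 1.63% and 1.82% in WT, and the cytosolic share is larger in both WT libraries.

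Other genes of neutrophil precursors were read from a list of 12, of which 8 were tested. Fcnb, which encodes ficolin B, a pattern-recognition lectin of immature myeloid cells, was counted 90 and 13 times in the KO libraries and 0 times in both WT libraries. With 3 counts put in for each WT library, its KO mean was at least 20.3-fold higher, and it was the 1 member called by DESeq2 (adjusted p = 0.00377; 0.377% of tested genes were called higher). Fcnb passed the filter only through its KO counts. Ms4a3, a membrane protein gene of granulocyte and monocyte progenitors, had 36 and 10 counts in KO and 0 in both WT libraries, at least 8.92-fold higher. Prss57, a further granule serine protease gene, had 15 and 0 counts in KO and 0 in both WT libraries. The list also holds genes that NK cells express strongly, and the highest, Nkg7 and Calr, differed by -0.10 (SE 0.21) and -0.02 (SE 0.25) on the log2 scale. edgeR called none, the median log2 fold change was 0.79, and 1 of the 8 tested members, Fcnb, had KO above WT without overlap (9.64% of tested genes did).

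Of 17 other secondary and tertiary granule genes, 14 were tested, 13 of these were above 0 and the median log2 fold change was 1.51. None passed edgeR or DESeq2 over all genes, and 4 had both KO libraries above both WT libraries (9.64% of tested genes did). At an unadjusted edgeR p under 0.05, 2 were higher (1.7% of tested genes were): Wfdc21, a whey acidic protein family gene, stood at 2.45 and 0.527 CPM in KO and 0.123 and 0.0509 CPM in WT, and the chitinase-like gene Chil1 at 1.64 and 0.582 CPM in KO and 0.184 and 0.0254 CPM in WT. Both were named after their values were seen. The highest members, Cyba, a subunit of the NADPH oxidase, and Pglyrp1, a peptidoglycan-binding protein, stood at 954 and 614 CPM and 152 and 154 CPM in KO, against 783 and 570 CPM and 135 and 110 CPM in WT.

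Genes of mature neutrophils were read from a list of 21, of which 13 were tested and none passed edgeR or DESeq2. The log2 fold changes ran from -1.74 to 1.89 with a median of 0.82, and 10 of the 13 were above 0. Without overlap 2 lay higher and 2 lower in KO (9.64% and 11.6% of tested genes did). Csf3r, the receptor for granulocyte colony-stimulating factor, stood at 2.15 and 0.804 CPM in KO and 2.40 and 0.229 CPM in WT. Cxcr2, the chemokine receptor that brings neutrophils out of the marrow, stood at 1.06 and 0.499 CPM in KO and 0.769 and 0.0254 CPM in WT. Their log2 fold changes were 0.17 (SE 1.18) and 0.98 (SE 1.36). Larger values were seen for Fpr2, a formyl peptide receptor gene (1.89, SE 1.49), Retnlg, a resistin-like gene (1.45, SE 1.54), Ly6g, the neutrophil surface marker (1.29, SE 1.15), and Alox5ap, a gene of leukotriene synthesis (1.05, SE 1.25). These 6 genes, all above 0, were named after their values were seen, while the lowest value of the list was -1.74. Mxd1 and Padi4, the highest members, had log2 fold changes of -0.60 (SE 0.36) and -1.29 (SE 0.34). At an unadjusted edgeR p under 0.05, 0 of the 13 were higher in KO and 2 were lower, Padi4 among them (1.7% and 1.14% of tested genes were). Stfa2 was at 0 in all 4 libraries.

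Of 10 transcription factor and receptor genes of granulocyte formation 9 were tested and none was called. Their median log2 fold change was 0.17, with 6 above 0 and 3 below. Without overlap 1 lay higher and 1 lower in KO (9.64% and 11.6% of tested genes did). Cebpe, which drives the secondary granule program, stood at 1.16 and 0.499 CPM in KO and 0.246 and 0.229 CPM in WT, a log2 fold change of 1.78 (SE 0.68). Cebpe had the largest value of the 9 and was named after its values were seen. The highest members, Irf8 and Runx1, which NK cells also use, differed by 0.07 (SE 0.32) and -0.00 (SE 0.65). The 11 other S100 genes had 6 tested members, none of them called, with log2 fold changes of 0.21 to 0.89 around a median of 0.28. Among these, S100a10 and S100a6 differed by 0.28 (SE 0.25) and 0.47 (SE 0.44).

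Markers of other cell types were read in the same libraries, and their part in the granule gene result was not tested. The 13 erythroid genes summed to 292 and 163 CPM in KO and 55.6 and 39.5 CPM in WT, with all 11 tested above 0 (median 2.28) and 4 hemoglobin genes (Hba-a1, Hba-a2, Hbb-b1 and Hbb-bs) called higher by DESeq2, as 0.377% of tested genes were. The alpha genes and the beta genes are near-identical copies, so reads may be split between them. The 18 cell cycle genes summed to 142 and 95.7 CPM in KO and 48.4 and 49.4 CPM in WT, all above 0 (median 1.30). Ccnb2, the cyclin B2 gene, was the 1 of 18 called by DESeq2 (adjusted p = 0.00451, background 0.377%). Without overlap, KO lay higher for 7 of 11 tested erythroid genes and 15 of 18 cell cycle genes (9.64% of tested genes did). The full order of the granule genes was held by 7 of 13 erythroid and 8 of 18 cell cycle genes (3.87% of tested genes). The 22 monocyte and macrophage genes were higher in sum in both libraries numbered 1, with 750 and 456 CPM in KO and 831 and 421 CPM in WT, 18 of 19 tested above 0 (median 0.52), and Vsig4 at 0 in KO library 2 and WT library 2. Their median log2 ratio was 0.82 in the first pair and -0.21 in the second. The 11 dendritic cell genes summed to 199 and 73.9 CPM in KO and 141 and 74.2 CPM in WT (8 of 9 above 0), with Siglech, a plasmacytoid marker, at 0 in KO library 2 and WT library 2, and Clec9a at 0 in WT library 2.

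The 10 B cell genes summed to 449 and 222 CPM in KO and 246 and 170 CPM in WT (5 of 9 tested above 0), and the 11 T cell genes to 309 and 163 CPM in KO and 230 and 176 CPM in WT (4 of 10 above 0), and no member was at 0. Trac, the T cell receptor alpha constant gene, was the 1 of 10 tested called by DESeq2 (background 0.377%), with 93.9 and 36.0 CPM in KO and 5.87 and 8.30 CPM in WT. The 10 stem and progenitor genes summed to 9.13 and 9.15 CPM in KO and 10.5 and 15.7 CPM in WT (1 of 4 tested above 0). The 16 eosinophil, basophil and mast cell genes summed to 875 and 702 CPM in KO and 815 and 641 CPM in WT, mostly from Cma1 (773 and 699 CPM in KO and 805 and 638 CPM in WT). Of these 16 genes, 1 and 8 were at 0 in KO libraries 1 and 2, and 4 and 9 in WT libraries 1 and 2. List medians ran from -0.53 to 2.28, beside 4.67 for the granule genes, and the difference between lists was not tested.

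**Figure D4:**
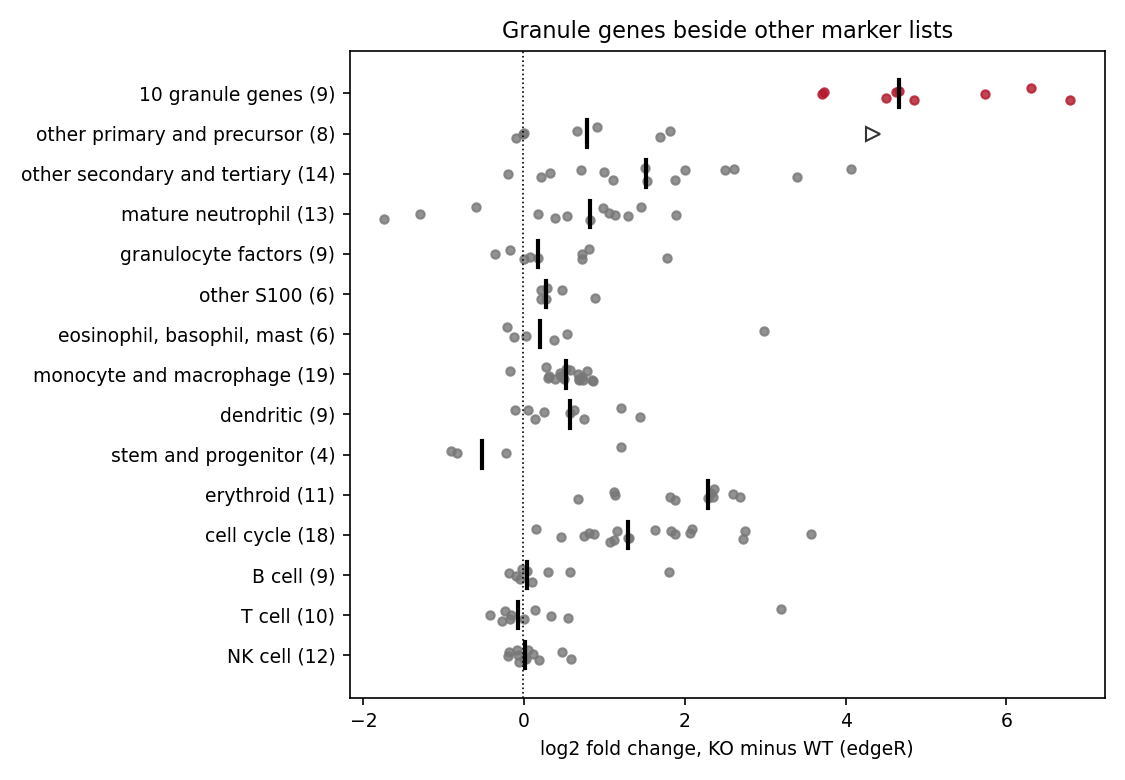
Log2 fold change (KO minus WT, edgeR) of each tested gene in the 10 granule genes (red) and in 14 other lists (grey), with the number tested in brackets, black bars for list medians and a dotted line at the median of all tested genes. The granule genes run from 3.71 to 6.80 with a median of 4.67, the erythroid median is 2.28, and the open arrowhead is Fcnb at the lower bound that counts of 0 in WT allow.

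Likeness to the granule genes was measured over the 4 libraries as the Euclidean distance of a gene's centred log2 profile from the mean profile of the 10. The members, which make up that mean profile, lay at distances of 0.742 (Lcn2) to 2.49 (Ngp). The median of 11006 other genes with a mean of at least 1 CPM was 5.25. The nearest other genes were Lmo1, which encodes a LIM-domain transcription cofactor (distance 1.53, with 5.86 and 1.58 CPM in KO and 0.154 and 0.0509 CPM in WT), the mitotic checkpoint kinase gene Bub1 (1.70) and the red cell anion exchanger gene Slc4a1 (2.04). Next came Hp, which encodes the hemoglobin-binding haptoglobin (2.04), the T cell receptor segment Traj33 (2.05), the chitinase-like gene Chil3 (2.05) and the segment Trav14n-1 (2.10). The annexin gene Anxa8 (2.20), the lymphocyte homing receptor gene Gpr15 (2.23) and the troponin gene Tnni1 (2.31) completed the 10. Traj33 was counted 135 and 64 times and Trav14n-1 185 and 78 times in KO, and neither was counted in WT. Anxa8 read 233 and 150 CPM in KO and 13.8 and 11.9 CPM in WT. Hp and Chil3 belong to the list of secondary and tertiary granule genes. In both, KO library 2 lay below WT library 1 (2.61 against 2.98 CPM for Hp and 5.18 against 8.52 CPM for Chil3). With 4 points that differ by both genotype and number, likeness is a description of these libraries.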

How the data were processed

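RNA-seq libraries of sorted spleen NK cells were analysed from 2 KO and 2 WT mice. Each file holds, per the file headers, a gene length and a read count for every Entrez gene, deposited without normalization. The submitters' processing notes name featureCounts and the mm10 build. No aligner, tool version or strand setting is given in the sources used here. The sample files held the same counts as the series table, and 0 columns lacked a sample. Of 26611 Entrez numbers, 25275 matched a symbol in RefSeq (GRCm38.p6). The rest, with 1.23% of all counts, were tested too.

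Genes were kept with filterByExpr of edgeR 4.0.16 (minimum count 10; R 4.3.3), which left 12723. The main test was edgeR's robust quasi-likelihood F-test with TMM factors and genotype as the only term, two-sided, with Benjamini-Hochberg adjustment over all tested genes and a threshold of 0.05. The SE of a fold change was derived from its F statistic. Intervals are exact binomial (Clopper-Pearson, 95%) or the exact conditional equivalent for a ratio of counts, and cover counting error only. DESeq2 1.42.0, limma 3.58.1 (voom), other scalings and filters, the replicate number as a block and each library left out were alternatives; DESeq2 without each library was added after the data were seen. The fits were first tested on simulated counts. No library was a copy of another (chi-square per degree of freedom 36.9 to 285).

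The 10 genes, the lists and the tests were chosen with earlier results of these data known. From the other lists, names were drawn from members called by edgeR or DESeq2, the 2 with the highest mean level and markers at 0, with further genes where stated. Of like profiles, the 10 nearest were named. Without a stated strand, overlapping antisense reads cannot be told apart.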

Additional observations from a re-analysis of the deposited data

How the results depend on the processing

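All 96 recomputed log2 fold changes of the tested granule genes kept their direction, and 14 of them were called, against 0 in the fit with genotype alone. Over all genes edgeR called 0; it called 35 when low genes were kept, and the count was 71 with DESeq2, 221 with the replicate number as a block and 0 to 53 without 1 library. The count of granule genes called was 0, and was 4 with DESeq2, 7 with the block (Mpo, Elane, Prtn3, Lcn2, Camp, S100a8 and S100a9; 1.07% of tested genes were called higher), 0 to 3 without 1 library, and 0 under the other scalings, filters and voom. Same-numbered libraries deviated together from their genotype means (correlation 0.74 over 12723 genes), but with 2 pairs and no label for the number the block remains an alternative. The DESeq2 count of granule genes was 1 to 9 without 1 library. In each such fit the lone library of a genotype is assumed to vary like the other genotype's. The median log2 fold change of the tested granule genes was 4.67, 5.87 with voom and 3.66 to 8.34 without 1 library. The primary granule share differed by 3.93 to 4.11 points without 1 library, by 2.08 points per gene length and by 1.92 points without the cytosolic genes (exact permutation p = 1.00). With 1 CPM added in place of 0.1 CPM, the median log2 ratios within numbers 1 and 2 were 3.36 and 2.94, so number 1 was then the larger. The cause of these differences was not tested. WT library 2 was the deepest library and held 55 counts of the 10 genes, so its shares and ratios rest on few counts.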

Other observations

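Among 16 genes of eosinophils, basophils and mast cells, 6 that were chosen after their values were seen had most of their counts in KO library 1. Prg2, which encodes the eosinophil major basic protein, had 1404 and 3 counts in the KO libraries and 9 and 0 in the WT libraries. The eosinophil peroxidase gene Epx had 134 and 0 counts in KO and 0 and 2 in WT, and Ear1, an eosinophil ribonuclease gene, had 265 and 0 in KO and 1 in each WT library. Ear6 was counted 203 times and the basophil protease gene Prss34 146 times in KO library 1, with 0 counts of either in the other 3 libraries, and the basophil gene Mcpt8 had 91 and 0 counts in KO and 4 and 0 in WT. Some of these, such as the Ear genes, have near-identical copies. None of the 6 passed the filter on low counts, and their values rest on 1 library.

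Not every gene of the list shared this pattern. Of the 16 genes, 1 was at 0 in KO library 1 and 8 in KO library 2, against 4 and 9 in WT libraries 1 and 2. The 6 other genes that were tested had log2 fold changes from -0.21 to 2.99 with a median of 0.20, 4 above 0 and 2 below. Ccr3, the eotaxin receptor gene, had 227 and 45 counts in KO and 156 and 56 in WT, and the mast cell protease gene Cpa3 had 49 and 55 counts in KO and 75 and 55 in WT.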
